A study of Homo sapiens with 6 samples.

Results

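The thioredoxin and peroxiredoxin genes described here were 10 genes of the 60856 features in the deposited tables, taken by gene symbol: the thioredoxins TXN and TXN2, the reductase TXNRD1, the thioredoxin-binding protein TXNIP and the 6 peroxiredoxins PRDX1 to PRDX6. All 10 symbols were matched to an Ensembl identifier, and 9 of the 10 passed the filter on low counts, TXNIP being left out. RNA was measured in Jurkat, a human T cell line derived from a leukemia, here of the genotype WT. The 3 control libraries came from cells given the vehicle 0.1% DMSO, and the 3 exposed libraries from cells given 1 µM BPAF (bisphenol AF, a fluorinated relative of bisphenol A). The labels name DMSO only for the control group and give 12 h as the exposure time in the sample treatment and 24 h in the protocol. Libraries within a group are biological replicates by the design text, and all come from 1 cell line.

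Thioredoxins are small proteins that reduce disulfides in other proteins through a pair of cysteines, and a thioredoxin reductase restores them with electrons from NADPH. Peroxiredoxins reduce hydrogen peroxide with a reactive cysteine and are in most cases returned to the reduced state by thioredoxin. TXNIP, an alpha-arrestin, binds thioredoxin through its active cysteines and also promotes removal of glucose transporters from the cell surface. T cells depend on the thioredoxin pathway during proliferation, in part because ribonucleotide reductase uses thioredoxin to make deoxyribonucleotides.

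Bases that code for catalytic residues of each enzyme are shown because they are what the 9 enzymes share and where they differ. They were read 5′ to 3′ from GENCODE 29 transcripts (GRCh38), with the codons of active-site cysteines of the thioredoxins and peroxiredoxins in capitals. For TXNRD1 only the in-frame stop-like codon that is read as selenocysteine is in capitals. The cysteine codon tgc directly before it is in lower case, and other parts of that enzyme are not shown.
TXN: gccacgtggTGTgggcctTGCaaaatgatc
TXN2: gcacagtggTGTggacccTGCaagatcctg
TXNRD1: agcatcctccaggctggctgcTGAggttaa
PRDX1: gacttcacctttgtgTGCcccacggagatc
PRDX2: gacttcacttttgtgTGCcccaccgagatc
PRDX3: gatttcacctttgtgTGTcctacagaaatt
PRDX4: gatttcacatttgtgTGTccaactgaaatt
PRDX5: ggggccttcacccctggaTGTtccaagaca
PRDX6: cgggactttaccccagtgTGCaccacagag
The thioredoxins TXN and TXN2 each carry a pair of cysteine codons separated by 6 bases. In TXNRD1 the selenocysteine codon is parted from the final stop codon by 1 codon, so the selenocysteine lies at the very end of the protein. Each peroxiredoxin stretch shows 1 cysteine codon. Aligned at that codon, the bases of PRDX2, PRDX3 and PRDX4 were identical to those of PRDX1 at 28, 24 and 23 of 30 positions, and those of PRDX5 and PRDX6 at 16 of 27 and 21 of 27.

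Library totals ran from 20253656 to 22617613 rounded counts. Every pair of libraries differed beyond counting noise, at 2.38 to 7.68 chi-square units per degree of freedom. The T lymphocyte label was checked on 10 marker genes, all of which were tested and none of which passed in either direction, with 0 of 10 at an unadjusted p under 0.05 in edgeR and 0 called by DESeq2 or limma-voom. Their summed TPM (a level scaled for gene length and library size) was 3098 to 3246 in DMSO and 3227 to 3307 in BPAF. Myeloid markers summed to under 1 TPM in every library (0.20 to 0.88 in DMSO, 0.43 to 0.95 in BPAF), as 6 genes of which none was at 0 in all libraries. Erythroid markers summed to 113.4 to 119.7 TPM in DMSO and 93.2 to 128.6 in BPAF. B lymphocyte markers summed to 21.3 to 24.8 TPM in DMSO and 19.8 to 22.8 in BPAF, nearly all of it CD79A. The 7 epithelial or fibroblast markers summed to 1.88 to 2.18 TPM in DMSO and 2.50 to 3.02 in BPAF, groups that did not overlap, with EPCAM, CDH1 and DCN at 0 in every library, and neither of the 2 that were tested passed. The part of these markers in the results was not tested.

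The 9 thioredoxin system genes that were tested had lower fitted levels in BPAF, 3 of them past the threshold. The 3 were TXN, TXNRD1 and PRDX3: the main thioredoxin outside mitochondria, the enzyme that reduces it, and a peroxiredoxin of mitochondria. TXN fell by 15.1%, PRDX3 by 8.07% and TXNRD1 by 7.37%. None rose. Calls rest on an adjusted p (Benjamini-Hochberg over all 15490 genes tested) under 0.05 in edgeR's quasi-likelihood test. Across all genes tested, 3.4% were called lower and 2.65% higher by the same rule. Over the 9 genes the median log2 fold change was -0.11, against 0.0019 for all genes tested. All 9 were below 0, as were 49.2% of all genes tested, and 5 of the 9 had an unadjusted p under 0.05, as did 3076 (19.9%) of the 15490 genes tested. With the upper quartile scaling PRDX6 moved above 0, and on the deposited TPM scale 5 of the 9 did. PRDX2 or PRDX6 also did in some fits that left out 1 library. The sign shared by all 9 thus depends on the scaling and the libraries used. With limma on log2(TPM + 1) and log2(TPM + 0.1) the median of all genes tested was itself above 0, at 0.0775 and 0.0892. Below that median lay 8 and 9 of the 9 genes. Bulk RNA cannot tell less RNA per cell from fewer cells of a kind.

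**Figure D1:**
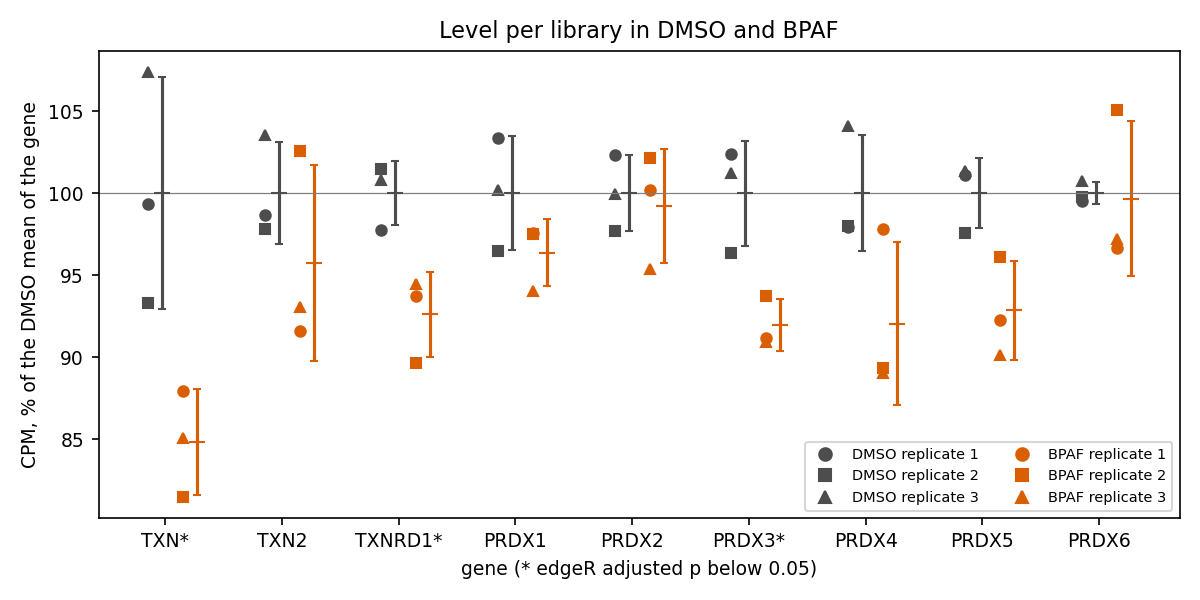
Level of each tested gene in each of the 6 libraries, in TMM-scaled CPM (counts scaled to library size) as a percentage of the mean of the 3 DMSO libraries of that gene; crossed bars are the group mean and SD, n = 3. All 3 BPAF points lie below all 3 DMSO points for TXN, TXNRD1, PRDX3, PRDX4 and PRDX5, and the groups overlap for the other 4 genes.

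In 5 of the 9 genes every BPAF library lay below every DMSO library in CPM, against 12.8% of all genes tested. These were TXN, TXNRD1, PRDX3, PRDX4 and PRDX5. In deposited TPM the same held for TXN alone of the 9, against 3.5% of all genes tested. For PRDX6 every BPAF library lay above every DMSO library in TPM. The share of all genes with that order was not counted, so the order cannot be read as particular to PRDX6. In limma on log2(TPM + 1) the median log2 fold change of all genes tested was itself above 0, at 0.0775. Together the 10 genes took 0.196% to 0.201% of all counts in the DMSO libraries and 0.190% to 0.193% in the BPAF libraries. Their summed TPM was 2897 to 2992 in DMSO and 2895 to 2927 in BPAF, with overlapping ranges.

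TXN (ENSG00000136810, chr9:110243811-110256640, minus strand, GRCh38) encodes the thioredoxin of cytosol and nucleus. Its level was 136.7, 128.4 and 147.8 CPM in the DMSO libraries 1 to 3 and 121.0, 112.1 and 117.0 CPM in the BPAF libraries 1 to 3. The highest BPAF library stood below the lowest DMSO library, and the DMSO libraries were more spread. Means were 137.6 ± 9.73 CPM (SD, n = 3) and 116.7 ± 4.45 CPM (SD, n = 3). The log2 fold change was -0.24 ± 0.05 (SE, here and below), with an edgeR adjusted p of 0.00718. In deposited TPM the libraries held 378.7, 366.6 and 398.0 in DMSO and 351.9, 322.1 and 343.9 in BPAF, and here too the groups did not overlap. TXN passed in 5 of the 6 fits that each left out 1 library; without BPAF replicate 3 the edgeR adjusted p was 0.0523. With limma on log2(TPM + 1) its log2 fold change was -0.17 with an adjusted p of 0.299.

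TXN2 (ENSG00000100348, chr22:36467036-36482030, minus strand) encodes the thioredoxin of mitochondria, which reduces PRDX3 and PRDX5 there. It held 76.0, 75.3 and 79.8 CPM in DMSO and 70.5, 79.0 and 71.7 CPM in BPAF. BPAF replicate 2 lay among the DMSO libraries and the other BPAF libraries below them. The log2 fold change was -0.06 ± 0.05, with an edgeR adjusted p of 0.498. On the deposited TPM scale the means were 111.3 ± 3.92 (SD, n = 3) and 112.7 ± 9.08 (SD, n = 3), without the lower mean seen in CPM.

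TXNRD1 (ENSG00000198431, chr12:104215779-104350305, plus strand) encodes the selenoprotein that reduces TXN. Its level was 513.4, 532.9 and 529.3 CPM in DMSO and 492.2, 470.9 and 496.1 CPM in BPAF. All 3 BPAF libraries were lower than all 3 DMSO libraries. Means were 525.2 ± 10.3 CPM and 486.4 ± 13.6 CPM (SD, n = 3 each), with a log2 fold change of -0.11 ± 0.03 and an edgeR adjusted p of 0.0284. The groups overlapped in deposited TPM, with means of 213.9 ± 3.45 and 215.0 ± 8.94 (SD, n = 3 each) and a log2 fold change of 0.01 in limma on log2(TPM + 1). The call was held in 1 of the 6 fits that left out a library, the one without BPAF replicate 3 (adjusted p 0.0464); it was lost without DMSO replicate 1, 2 or 3 (0.0528, 0.0721 and 0.0593) without BPAF replicate 1 or 2 (0.0979 and 0.118), and with the replicate number as a block (0.0503).

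TXNIP (ENSG00000265972, chr1:145992435-145996600, minus strand) was almost without reads. Counts were 2, 10 and 8 in the control libraries and 1, 8 and 4 in the exposed ones. These are 20 counts in one group and 13 in the other, with overlapping libraries, and the gene was not tested. In deposited TPM it ran from 0.05 to 0.79 in DMSO and from 0.02 to 0.37 in BPAF, while TXN had at least 322.1 TPM in every library. The depth here shows no difference in TXNIP between the groups and does not show that there is none.

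PRDX1 (ENSG00000117450, chr1:45511036-45523047, minus strand) encodes an abundant cytosolic peroxiredoxin. Its level was 633.8, 591.3 and 614.2 CPM in DMSO and 598.3, 597.8 and 576.3 CPM in BPAF. Only BPAF replicate 3 lay below every DMSO library. At a log2 fold change of -0.05 ± 0.03 the edgeR adjusted p was 0.345. PRDX1 had the highest TPM of the 10 genes in every library, with means of 1177 ± 37.0 in DMSO and 1195 ± 13.6 in BPAF (SD, n = 3 each), and made up 39.6% to 41.3% of the summed TPM of the 10. With an offset for GC content and exon length PRDX1 had a log2 fold change of -0.10 with an edgeR adjusted p of 0.0388. The 3′ end of PRDX1 overlaps MMACHC, a cobalamin-processing gene of the opposite strand, over 2347 bases of the gene spans. The deposited PRDX1 counts were not whole in any library, whereas PRDX1 and MMACHC counts summed to a whole number (within 0.02) in 5 of the 6. MMACHC made up 1.67% to 2.25% of that sum.

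PRDX2 (ENSG00000167815, chr19:12796820-12801859, minus strand) encodes the other typical cytosolic peroxiredoxin. It held 110.7, 105.7 and 108.1 CPM in DMSO and 108.3, 110.4 and 103.1 CPM in BPAF. The groups overlapped, and a log2 fold change of -0.01 ± 0.04 had an edgeR adjusted p of 0.910. PRDX2 lies within the annotated span of HOOK2 on the same strand, and an antisense gene covers 5027 of its bases. HOOK2, which encodes a protein that links cargo to microtubule motors, rose from 19.5 ± 0.80 to 23.9 ± 1.06 CPM (SD, n = 3 each) with a log2 fold change of 0.29 ± 0.07 and an edgeR adjusted p of 0.0174. That call was lost without DMSO replicate 1 or 2 (0.0730 and 0.0543) and without BPAF replicate 1 or 3 (0.0695 and 0.0948) and in DESeq2 without its filter (0.0508), and HOOK2 groups overlapped in TPM. Whether reads were shared between HOOK2 and PRDX2 was not tested. Counts of PRDX2 and the antisense gene summed to a whole number in 6 of 6 libraries, with at most 0.135% of the sum in the antisense gene. In 2 of these, DMSO replicate 2 and BPAF replicate 2, the antisense gene had 0 counts and PRDX2 alone was already whole.

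PRDX6 (ENSG00000117592, chr1:173477266-173488807, plus strand) encodes a peroxiredoxin with 1 active cysteine that is reduced by glutathione rather than thioredoxin. Its CPM was 84.4, 84.6 and 85.5 in DMSO and 82.0, 89.1 and 82.5 in BPAF. The DMSO libraries were close together, with 2 BPAF libraries below and BPAF replicate 2 above them. The log2 fold change was -0.01 ± 0.04, with an edgeR adjusted p of 0.967. The deposited TPM was 82.0 ± 0.89 in DMSO and 87.1 ± 2.74 in BPAF (SD, n = 3 each), where BPAF was the higher group. Limma on log2(TPM + 1) gave PRDX6 a log2 fold change of 0.085 with an adjusted p of 0.456. The median log2 fold change of all genes tested was 0.0775 on that scale.

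PRDX3 (ENSG00000165672, chr10:119167703-119178833, minus strand) encodes a peroxiredoxin of mitochondria. Its level was 287.5, 270.5 and 284.3 CPM in DMSO and 255.9, 263.2 and 255.3 CPM in BPAF. BPAF replicate 2, the highest of its group, was below DMSO replicate 2, the lowest of the controls. Means were 280.8 ± 9.01 and 258.2 ± 4.39 CPM (SD, n = 3 each), with a log2 fold change of -0.12 ± 0.03 and an edgeR adjusted p of 0.0221. Groups overlapped in deposited TPM, with means of 291.0 ± 8.10 and 284.2 ± 3.27 (SD, n = 3 each). The call was held without DMSO replicate 2 (0.00823) and without BPAF replicate 2 (0.0278) and was lost without DMSO replicate 1 or 3 (0.122 and 0.0593), without BPAF replicate 1 or 3 (0.122 and 0.0862), and with the offset for GC content and exon length (0.0640).

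PRDX5 (ENSG00000126432, chr11:64318088-64321811, plus strand) encodes a peroxiredoxin present in mitochondria, peroxisomes and cytosol. It held 147.6, 142.4 and 147.9 CPM in DMSO and 134.7, 140.3 and 131.6 CPM in BPAF. The groups did not overlap, and BPAF replicate 2 came closest to the controls. The log2 fold change was -0.11 ± 0.03, with an edgeR adjusted p of 0.0706 that missed the threshold. It passed without BPAF replicate 2 (0.0458) and with the offset for GC content and exon length (log2 fold change -0.16, adjusted p 0.00628).

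PRDX4 (ENSG00000123131, chrX:23664262-23686399, plus strand) encodes the peroxiredoxin of the endoplasmic reticulum, where it passes oxidising power to protein disulfide isomerases. Its CPM was 44.3, 44.3 and 47.1 in DMSO and 44.2, 40.4 and 40.2 in BPAF. BPAF replicate 1 lay just under the lowest DMSO library. The log2 fold change was -0.12 ± 0.05, close in size to that of PRDX3 but with a wider error, and the edgeR adjusted p was 0.219.

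**Figure D2:**
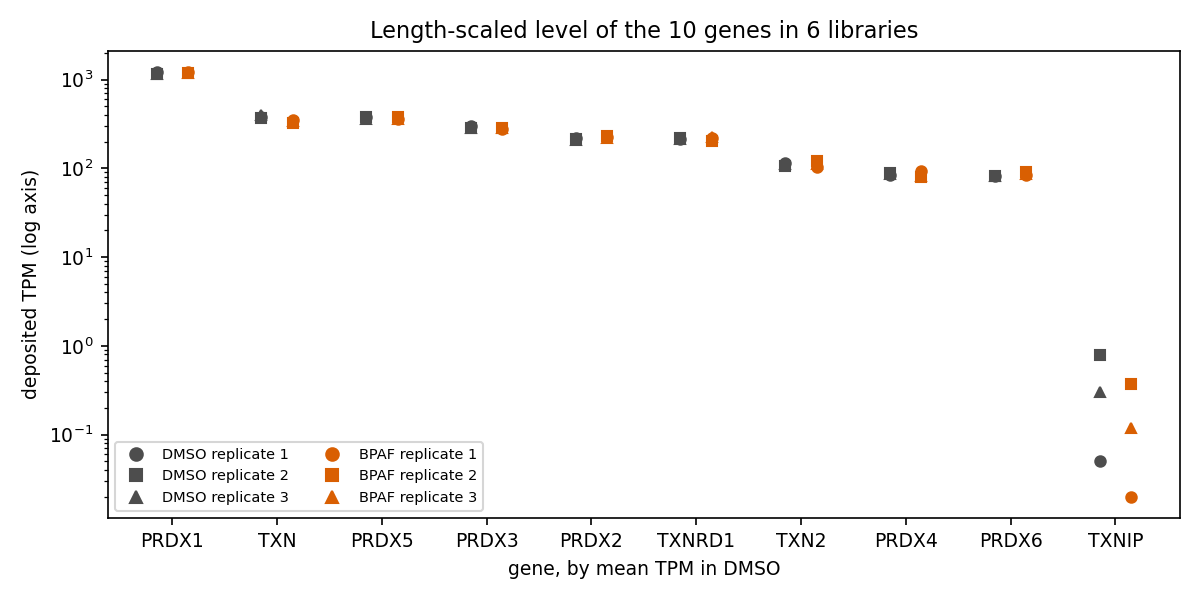
Deposited TPM of the 10 genes in each library on a log axis, ordered by the mean of the DMSO libraries; each point is 1 library. PRDX1 stands at 1146 TPM or more in all 6 libraries, 8 genes lie between 79.9 and 398.0 TPM, and TXNIP reaches at most 0.79 TPM.

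By deposited TPM, the scale on which genes of different length can be set side by side, the order in DMSO was PRDX1, TXN, PRDX5, PRDX3, PRDX2, TXNRD1, TXN2, PRDX4, PRDX6 and TXNIP. The DMSO ranges of TXN and PRDX5 overlapped, as did those of PRDX2 and TXNRD1, and the other neighbours stood apart. In BPAF TXN lay below PRDX5 in every library, with TXN minus PRDX5 at -8.06, -59.7 and -19.9 TPM in replicates 1 to 3. In DMSO the same difference was -3.46, -8.27 and 33.9 TPM. In BPAF the ranges of PRDX4 and PRDX6 overlapped.

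The same 3 genes were called by other count methods. DESeq2 called TXN, TXNRD1 and PRDX3 with adjusted p of 0.000776, 0.0175 and 0.0240, where 3.63% of the 11586 genes that its own filter kept were called lower, and 2.41% of all 15490 without that filter. With limma-voom their adjusted p was 0.0150, 0.0362 and 0.0367, where 2.94% of all genes were called lower. The offset for GC content and exon length gave a different set of 4, TXN, TXNRD1, PRDX1 and PRDX5, where 3.17% of all genes were called lower. With limma on log2(TPM + 1) none of the 9 was called, and 0.0% of all genes were called lower; 2443 genes had an unadjusted p under 0.05 there, and 1 of the 9 did.

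**Figure D3:**
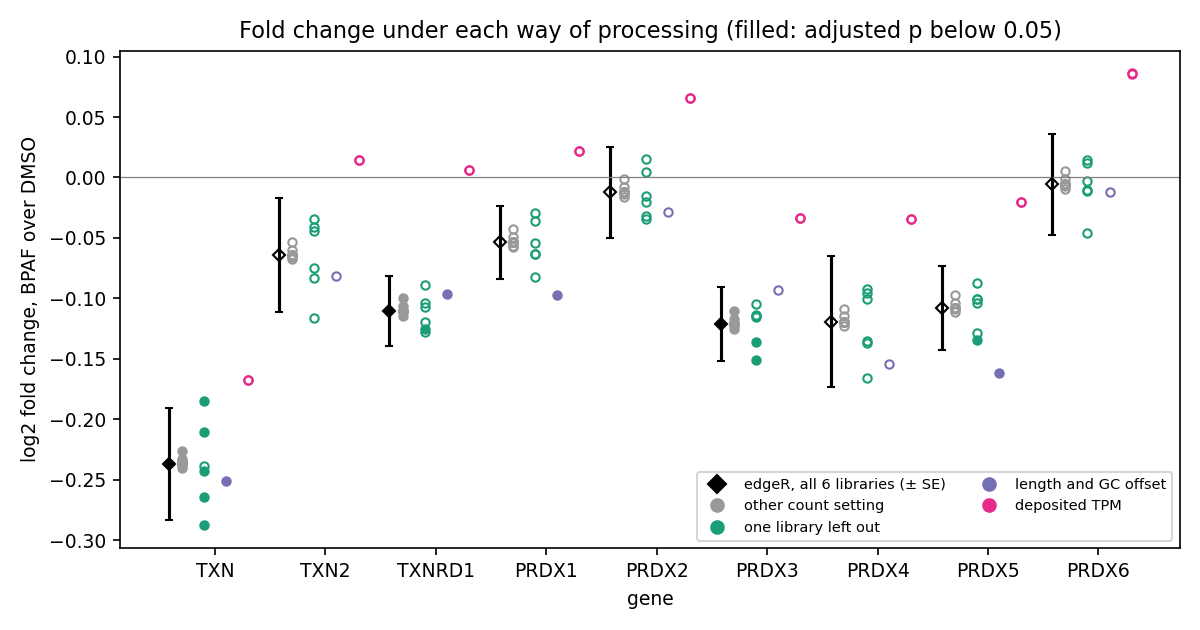
Log2 fold change of the 9 tested genes (BPAF over DMSO) in edgeR with its SE and under each alternative; filled points have an adjusted p under 0.05. TXN lies furthest from 0 in all count-based fits, and the points from deposited TPM lie above those from counts for every gene, on both sides of 0.

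Promoter bases were looked up in the RefSeq promoter table (GRCh38.p14), which held 7 of the 10 genes in 10 windows of 300 bases (250 before and 50 after a start). The 250 bases before the start are shown for the 3 genes that fell, 5′ to 3′ on the gene's strand, with motif matches in capitals.
TXN, minus strand, chr9:110256508-110256757: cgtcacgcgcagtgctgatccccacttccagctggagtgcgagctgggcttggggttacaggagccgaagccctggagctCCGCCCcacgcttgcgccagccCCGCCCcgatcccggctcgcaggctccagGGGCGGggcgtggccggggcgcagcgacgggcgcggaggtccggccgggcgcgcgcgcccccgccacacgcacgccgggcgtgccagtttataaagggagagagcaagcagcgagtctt
TXNRD1, plus strand, downstream start, chr12:104286782-104287031: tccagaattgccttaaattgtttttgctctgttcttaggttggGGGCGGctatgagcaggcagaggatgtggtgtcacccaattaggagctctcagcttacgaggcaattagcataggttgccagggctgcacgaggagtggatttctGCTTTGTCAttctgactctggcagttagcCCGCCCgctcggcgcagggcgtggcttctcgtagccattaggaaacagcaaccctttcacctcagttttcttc
PRDX3, minus strand, chr10:119178813-119179062: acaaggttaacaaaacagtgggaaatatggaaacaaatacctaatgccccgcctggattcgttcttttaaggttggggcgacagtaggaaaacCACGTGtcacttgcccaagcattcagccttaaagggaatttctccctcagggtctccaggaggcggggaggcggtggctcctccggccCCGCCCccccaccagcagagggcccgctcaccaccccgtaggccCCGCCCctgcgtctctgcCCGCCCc
Motifs were searched on both strands of the full windows. The antioxidant response element core TGACNNNGC, the letters bound by NRF2, was in both TXNRD1 windows and no other of the 10, against 13.3% of all 35116 windows. In the window shown it starts at base -102 from the start site. The E-box CACGTG was in the windows of PRDX3 (base -157) and PRDX4, against 7.26% of all windows. The GC box GGGCGG, bound by SP factors, was in 8 of the 10 windows, the TXN window among them, against 45.0% of all windows. Both windows of PRDX5, which overlap each other, and both windows of TXNRD1 are counted there, so the windows are not separate genes. The matches in the windows shown did not overlap one another, and the TXN window held only GC boxes. A match describes letters in these windows and no binding was measured.

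Related genes were read in 8 lists of 89 symbols, grouped by role, of which 81 genes were tested. Of these, 1 rose and 6 fell (edgeR), 8.64% against 6.06% of all genes tested. An unadjusted p under 0.05 was found for 19 of the 81 (23.5%), near the 19.9% of all genes tested, and the median log2 fold change was -0.02.

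Thioredoxin-fold relatives and the other reductases formed a list of 21 genes, all tested, of which 3 fell and 0 rose, with a median log2 fold change of -0.05. GLRX3, a glutaredoxin that carries iron-sulfur clusters, fell from 119.0 ± 7.04 to 104.5 ± 4.01 CPM (SD, n = 3 each; log2 fold change -0.19 ± 0.04, edgeR adjusted p 0.0148). TXNDC9, which binds the chaperonin for tubulin and actin, fell from 31.1 ± 2.12 to 25.4 ± 2.20 CPM (-0.29 ± 0.07, edgeR adjusted p 0.0184). TXNDC12, a thioredoxin-like protein of the endoplasmic reticulum, fell from 58.9 ± 2.47 to 52.6 ± 1.21 CPM (-0.16 ± 0.05, edgeR adjusted p 0.0451). All 3 had every BPAF library below every DMSO library in CPM and overlapping groups in TPM. DESeq2 and limma-voom called GLRX3 and TXNDC9 only (TXNDC12 0.0998 and 0.0588), and TXNDC12 was also lost with upper quartile scaling (0.0648) and with the replicate number as a block (0.0585). The GLRX3 call was lost without DMSO replicate 3 (0.0669) and BPAF replicates 1 and 3 (0.104 and 0.0513), that of TXNDC9 without DMSO replicate 3 (0.0818) and BPAF replicate 3 (0.112), and that of TXNDC12 in each fit but the one without DMSO replicate 3 (0.0566 to 0.175 when lost). The mitochondrial reductase TXNRD2 had 9.09 ± 0.78 and 9.18 ± 0.75 CPM, and the testis-enriched TXNRD3 had 16.8 ± 1.18 and 17.8 ± 1.59 CPM (SD, n = 3 each). Neither passed (edgeR adjusted p 0.974 and 0.660).

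Among 12 thioredoxin clients, 11 were tested, 2 fell and 0 rose, with a median log2 fold change of -0.05. Of all genes tested, 3.4% were called lower and 2.65% higher. An unadjusted edgeR p under 0.05 was found for 2 of the 11 (18.2%), near the 19.9% of all genes tested. DESeq2 and limma-voom each called 1 client. RRM1, the large subunit of ribonucleotide reductase, fell from 298.0 ± 5.05 to 269.3 ± 7.74 CPM (SD, n = 3 each), with a log2 fold change of -0.15 ± 0.03 and an edgeR adjusted p of 0.00674. RRM1 passed in all 6 fits that left out a library, at adjusted p from 0.00899 to 0.0434, and its TPM groups overlapped. The partner subunit RRM2 held 353.3 ± 3.14 and 352.8 ± 5.86 CPM (SD, n = 3 each; edgeR adjusted p 0.985). APEX1, a DNA repair endonuclease that thioredoxin keeps reduced, fell from 327.0 ± 2.05 to 305.5 ± 6.53 CPM (-0.10 ± 0.03, edgeR adjusted p 0.0432). The APEX1 call was lost in DESeq2 (0.0520), limma-voom (0.0522), upper quartile scaling (0.0759), the fit with the replicate number as a block (0.0597), and 5 of 6 fits that left out a library (0.0593 to 0.177), all but the one without BPAF replicate 2, and its log2 fold change was above 0 (0.005) in limma on log2(TPM + 1).

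The repair list (SRXN1, sulfiredoxin, which restores overoxidised peroxiredoxins, and 3 sestrins) had 4 of 4 genes tested and 0 called by edgeR, DESeq2 or limma-voom, with 0 at an unadjusted edgeR p under 0.05 and a median log2 fold change of 0.04. SRXN1 held 12.6 ± 0.76 CPM in DMSO and 13.5 ± 1.08 CPM in BPAF (SD, n = 3 each; edgeR adjusted p 0.622). SESN1, an inhibitor of growth signalling, differed by 0.04 ± 0.10 in log2 (edgeR adjusted p 0.884).

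TXNIP relatives and their activators had 6 of 8 genes tested and 0 called by edgeR, DESeq2 or limma-voom, with 1 at an unadjusted edgeR p under 0.05. The alpha-arrestins ARRDC3 and ARRDC4 had log2 fold changes of -0.22 ± 0.09 and -0.38 ± 0.19 (edgeR adjusted p 0.159 and 0.273). In both every BPAF library was below every DMSO library in CPM, as in 12.8% of all genes tested. In TPM the ARRDC3 groups overlapped and the ARRDC4 groups did not. ARRDC4 was expressed at low levels (3.25 and 2.49 CPM on average). Of the 6 tested genes, 3 had a log2 fold change below 0. MLXIP, the glucose-sensing factor that drives TXNIP transcription, held 153.5 ± 4.39 and 160.9 ± 5.35 CPM (SD, n = 3 each; edgeR adjusted p 0.274). For MLXIP every BPAF library was above every DMSO library in CPM, and the share of all genes with that order was not counted.

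Selenoprotein synthesis, on which TXNRD1 depends, had 8 of 8 genes tested and 0 called by edgeR, DESeq2 or limma-voom, with 3 at an unadjusted edgeR p under 0.05. SEPHS2, which makes selenophosphate, differed by -0.11 ± 0.04 in log2 (edgeR adjusted p 0.118), and its relative SEPHS1 by -0.08 ± 0.03 (edgeR adjusted p 0.157).

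Oxidative folding partners of PRDX4 had 7 of 9 genes tested and 0 called by edgeR, DESeq2 or limma-voom, with 1 at an unadjusted edgeR p under 0.05. The disulfide isomerase PDIA4 held 254.5 ± 1.21 and 243.9 ± 1.65 CPM (SD, n = 3 each; edgeR adjusted p 0.217). ERO1A, the oxidase that regenerates disulfide isomerases, held 95.2 ± 0.69 and 100.1 ± 0.28 CPM (SD, n = 3 each; edgeR adjusted p 0.273).

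Other peroxide and superoxide enzymes had 6 of 7 genes tested and 0 called by edgeR, DESeq2 or limma-voom, with 3 at an unadjusted edgeR p under 0.05 and a median log2 fold change of -0.06. GPX1, a glutathione peroxidase, differed by -0.12 ± 0.04 in log2 (edgeR adjusted p 0.0698), and SOD1, the cytosolic superoxide dismutase, by -0.12 ± 0.04 (edgeR adjusted p 0.0804). Both passed with the offset for GC content and exon length (0.00565 and 0.0188) and without the low-count filter (0.0209 and 0.00689).

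NRF2, encoded by NFE2L2, is the factor that raises TXNRD1, PRDX1 and SRXN1 under oxidative stress. The NRF2 list had 18 of 20 genes tested, 1 higher and 1 lower, with a median log2 fold change of -0.01. Of all genes tested, 2.65% were called higher and 3.4% lower. An unadjusted edgeR p under 0.05 was found for 2 of the 18 (11.1%), against 19.9% of all genes tested. FTH1, the ferritin heavy chain, rose from 640.0 ± 18.2 to 718.9 ± 23.2 CPM (SD, n = 3 each), with a log2 fold change of 0.17 ± 0.03 and an edgeR adjusted p of 0.00293, and passed in all 6 fits that left out a library (0.00203 to 0.0377). TKT, transketolase of the pentose phosphate pathway, fell from 576.0 ± 2.46 to 538.4 ± 13.7 CPM (-0.10 ± 0.03, edgeR adjusted p 0.0424). The TKT call was lost with upper quartile scaling (0.0741), with the replicate number as a block (0.0685) and in all fits that left out a library except the one without BPAF replicate 2 (0.0614 to 0.208 when lost), and its log2 fold change was 0.04 in limma on log2(TPM + 1). NFE2L2, its inhibitor KEAP1 and the target NQO1 did not pass (edgeR adjusted p 0.603, 0.895 and 0.985).

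**Figure D4:**
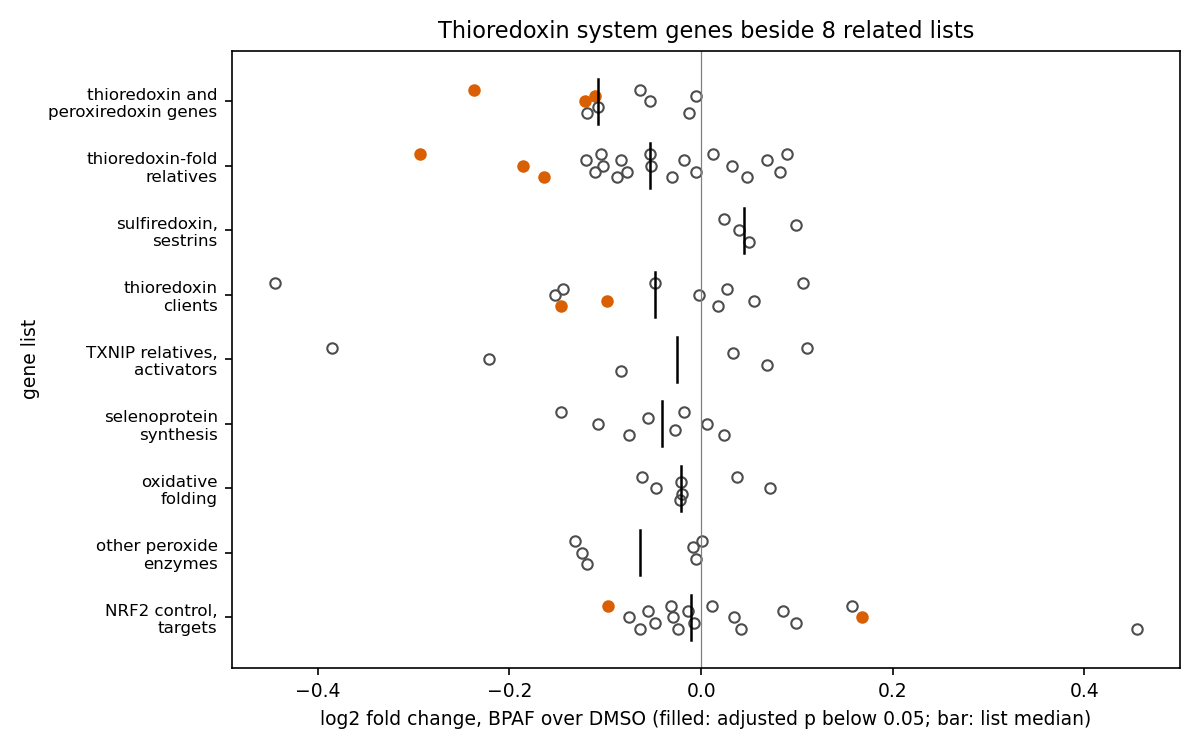
Log2 fold change (BPAF over DMSO) of every tested gene in the thioredoxin system and in the 8 related lists; filled points have an edgeR adjusted p under 0.05 and bars are list medians. The thioredoxin system has 3 filled points, all below 0, and the related lists have 6 below 0 and 1, FTH1, above.

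Genes closest to TXN across the 6 libraries were found by the root mean square difference of centred log2 CPM over 12549 genes. They were COPS4, a subunit of the COP9 signalosome (difference 0.0236), FUNDC1, a receptor for removal of mitochondria (0.0254), and TOMM5, a subunit of the mitochondrial import pore (0.0281). Their log2 fold changes were -0.25 ± 0.05, -0.25 ± 0.09 and -0.22 ± 0.05, with edgeR adjusted p of 0.00320, 0.117 and 0.0184. TOMM5 was lost without DMSO replicate 1 (0.0544) and without BPAF replicate 1, 2 or 3 (0.0502, 0.0692 and 0.106). The choice by likeness to TXN fixes their direction. Of the other thioredoxin system genes PRDX4 came nearest, at 0.0725 and place 384, followed by PRDX3 at place 716 and TXNRD1 at place 928. PRDX6 was furthest, at place 5432.

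Reads could also be shared with near copies. By symbol, 19 pseudogenes of the 10 genes were found in the tables, 13 of them at 0 in all libraries. The highest count of any was 7, none was tested, and summing them with their parent genes left the same 3 genes called. EID3, a gene inside TXNRD1 on the same strand, had counts of 9, 6 and 15 in the control libraries and of 21, 25 and 19 in the exposed ones. The BPAF libraries were all higher, with a log2 fold change of 1.06 ± 0.40 and an edgeR adjusted p of 0.122.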

How the data were processed

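Polyadenylated RNA of 3 DMSO and 3 BPAF Jurkat cultures was sequenced as strand-specific paired-end libraries, per the labels' protocols. FastQC, cutadapt, HISAT2, featureCounts and the builds GRCh38 and hg38 are named in the submitters' processing notes; versions, annotation and counting settings are not given in the sources used here. Deposited by the authors were estimated counts per gene with decimals (59.1% to 61.7% of the values above 0 were whole, tolerance 1e-09) and a table of TPM. How both were computed, and on which annotation, the labels and headers do not state, so coordinates come from GENCODE 29 (GRCh38) by Ensembl identifier.

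Estimated counts were rounded. Genes passing filterByExpr (15490) were scaled by TMM and tested with edgeR 4.0.16 (quasi-likelihood, robust) in R 4.3.3 over all 6 libraries without covariates, threshold 0.05. SE is the size of the log2 fold change divided by the square root of F. The biological coefficient of variation was 3.77%. P-values measure the spread among these libraries, whose separate origin only the design text states. Alternatives were DESeq2 1.42.0, limma-voom and limma 3.58.1 on log2(TPM + 1) and log2(TPM + 0.1), other scalings and filters, a replicate block, an exon length and GC offset, pseudogene sums and leaving out each library. Sums of PRDX1 with MMACHC and PRDX2 with its antisense gene were chosen after seeing the data. The fit was tested on simulated counts that gave every gene the same biological coefficient of variation, a setting that real genes need not share. That test cannot show how often calls are false in the real data. Named genes were all 10 members, in each list those called or else the 2 with the smallest p, the 3 genes nearest to TXN (average log2 CPM of at least 1), and overlapping genes and pseudogenes of members. TXNRD2, TXNRD3, RRM2, MLXIP, NFE2L2, KEAP1 and NQO1 were named in addition after their values were seen. The members and lists were chosen with earlier results of these data known.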

Additional observations from a re-analysis of the deposited data

How the results depend on the processing

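Of the counts reported for all genes (938 called, 411 higher and 527 lower), the thioredoxin system genes (3) and the related lists (7), these moved by over 1.5 times. Limma on log2(TPM + 1) and log2(TPM + 0.1) called 0 and 1 of all genes (0 and 1 higher, 0 and 0 lower), 0 and 0 of the thioredoxin system genes and 0 and 0 of the lists. DESeq2 called 269 genes higher, and 257 without its filter. In the lists the upper quartile scaling left 4, and the exon length and GC offset gave 11. Leaving out 1 library gave 322 to 861 genes, 147 to 368 higher, 175 to 541 lower, 1 to 3 of the thioredoxin system genes and 2 to 8 of the lists. Pairing of libraries by replicate number was not seen: deviations of same-numbered libraries correlated at 0.038, -0.067 and -0.0077, and not every library matched its own number best. DMSO replicate 3 correlated at -0.114 with BPAF replicate 1 and at 0.116 with BPAF replicate 2. With 3 libraries per group, such correlations cannot settle whether same-numbered libraries share an origin. The replicate block gave 826 genes, 2 of the thioredoxin system genes (TXNRD1 at an adjusted p of 0.0503) and 4 in the lists. Log2 fold changes turned above 0 on the scales log2(TPM + 1) and log2(TPM + 0.1) for TXN2 (0.01436 and 0.01445), TXNRD1 (0.0063 and 0.00632), PRDX1 (0.0222 and 0.02222), PRDX2 (0.06536 and 0.06563), PRDX6 (0.08521 and 0.08611), APEX1 (0.00497 and 0.00498), PDIA4 (0.02701 and 0.02719) and TKT (0.03843 and 0.03851), where the median of all genes was 0.0775 and 0.0892, and with upper quartile scaling for PRDX6 (0.0051). Leaving out 1 library gave -0.03426 to 0.01555 for PRDX2, -0.04576 to 0.01479 for PRDX6 and -0.01198 to 0.09027 for SESN1. The cause of these changes was not tested. Counted as pairs of a named gene and an alternative, calls were lost in 41 (6 of them, TXNRD1, APEX1 and TKT on both TPM scales, with a change of sign) and gained in 7 with all libraries, and lost in 38 and gained in 4 with 1 library left out. TXNIP was too shallow to test in any setting that used the low-count filter.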
